A study of Mus musculus with 35 samples.

Results

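The 6 colon RNA-seq libraries of a series of adult mouse tissues were compared with the 17 libraries of brain, cerebellum and heart. The colon is the columnar-lined, muscular last stretch of the gut. Members were taken from the sample labels as the 6 colon libraries among 29 RNA-seq libraries, with 3 from females and 3 from males. Brain and cerebellum each had 6 libraries and heart had 5, since male heart had 2 where every other tissue and sex had 3. All mice were adult C57BL/6J animals with no treatment named in the labels, and each group was a tissue of 1 sex. The labels do not say whether libraries of a group came from separate animals, so p-values measure the spread between these libraries. RNA was taken from whole tissue, in which fewer cells of a type and less RNA per cell cannot be told apart. The ovary and testis libraries entered no comparison. Genes were counted against a combined annotation of 55356 genes, and 25741 of them passed a filter on low counts, among them 16880 protein-coding genes, 4527 lncRNAs and 1448 pseudogenes.

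The inner face of the colon is a single-layered epithelium of absorptive colonocytes, mucus-secreting goblet cells and rarer hormone-secreting and tuft cells, all renewed from dividing cells in the crypts. Colonocytes take up salt, water and short-chain fatty acids, and goblet cells build the mucus that holds bacteria off the surface. Below the epithelium lie connective tissue with plasma cells that make secretory IgA, coats of smooth muscle, and the neurons and glia of the enteric nervous system. Brain and cerebellum consist of neurons and glia, and heart of striated muscle, so none of the 3 comparison tissues holds a mucosal epithelium.

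Levels are given as FPKM, the counts of a gene scaled to the length of its merged exons and to the library total. Differences are on the log2 scale, colon minus the equal-weight mean of the 3 other tissues, and adjusted p-values are from edgeR's quasi-likelihood test over all 25741 genes. A gene was also called higher or lower than each of the 3 tissues when the weakest of the 3 separate comparisons, which share the colon libraries, passed at an adjusted p under 0.05. Colon libraries were the shallowest, at 11742417 to 18890658 counts against 19075669 to 36194255 in the other tissues. Mitochondrially encoded genes took 2.35% to 6.26% of the counts in colon and 7.41% to 13.6% in heart.

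Several libraries stood apart from their group. Female colon 1 and male colon 3 carried transcripts known from the ileum that the other 4 colon libraries held at low levels. Fabp6, the ileal bile acid binding protein, was at 199 and 255 FPKM in these libraries and at 0.111 to 1.22 FPKM in the other colon libraries. Reg3b, an antimicrobial lectin, was at 1800 and 1580 FPKM against 0.233 to 5.79 FPKM, and Sis, the brush-border sucrase-isomaltase, at 114 and 49 FPKM against 0.0941 to 0.164 FPKM. Male colon 1 stood out by B-lymphocyte genes, with Cd79a of the B-cell receptor at 23.1 FPKM against 0.175 to 1.61 FPKM in the other 5. Among the hearts, female heart 3 held the fat hormone gene Adipoq at 695 FPKM against 0.0517 to 1.74 FPKM, and the antibody light chain Igkc at 501 FPKM against 1.64 to 7.05 FPKM. The library codes in the labels end in a digit that follows the tissue in 26 of the 29 libraries, and the 3 exceptions are female colon 1, male colon 3 and female heart 3. Colon markers were present in every colon library, with Car1 at 7580 FPKM or more and Krt20 at 262 FPKM or more. The 8 genes with the widest spread within colon, namely Reg3b, Defa24, Reg3g, Fabp6, Defa30, Apoa1, Defa22 and Itln1, were all highest in female colon 1 and male colon 3. Counts were recomputed without these 2 colon libraries, and also without female heart 3, beside the results they touch.

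**Figure D1:**
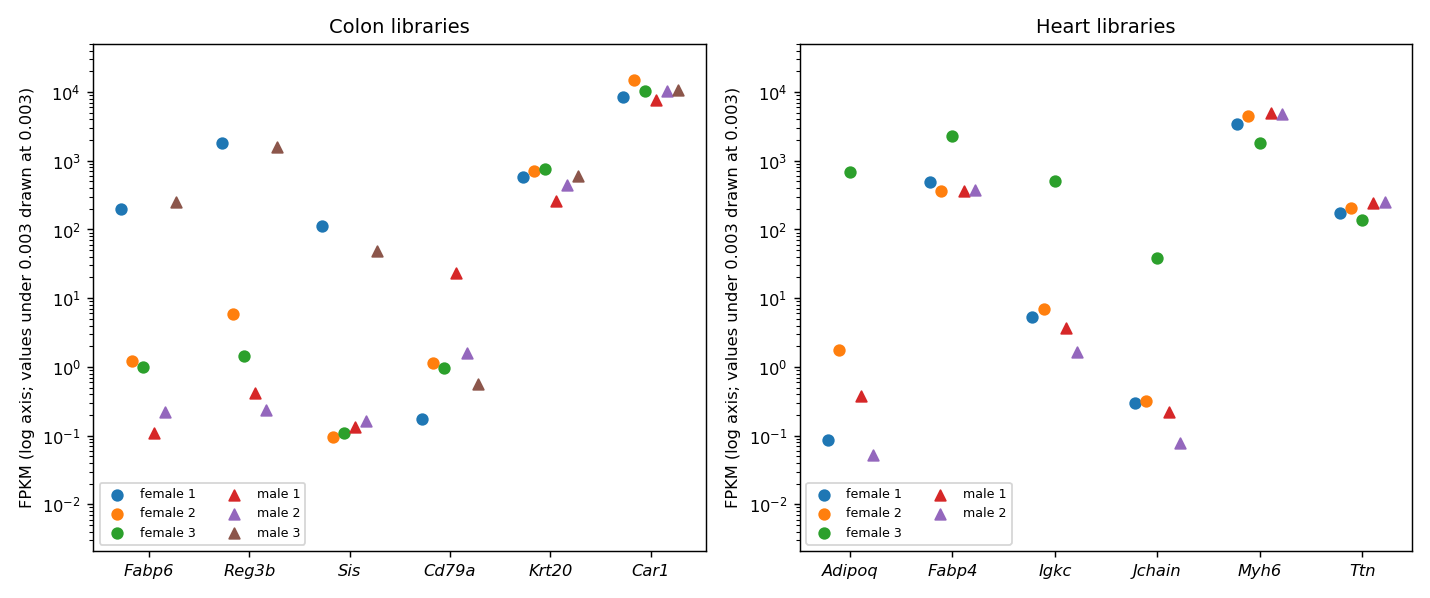
FPKM on a log axis of 6 genes in the 6 colon libraries (left) and of 6 genes in the 5 heart libraries (right), 1 point a library, circles for females and triangles for males. In colon, Fabp6, Reg3b and Sis are high in female 1 and male 3, and Cd79a in male 1, while Krt20 and Car1 are high in every library. In heart, Adipoq, Igkc and Jchain are high in female 3.

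Most genes differed between colon and the other tissues. Of the 25741 genes, 9561 (37.1%) were higher in colon and 8448 (32.8%) were lower, with a median log2 difference of -0.05 over all genes. In the stricter comparison, 4933 genes (19.2%) were higher in colon than in each of the 3 tissues and 3324 (12.9%) were lower than in each. All 6 colon libraries lay above all 17 others for 3301 genes (12.8%) and below them for 1385 genes (5.38%). Without the 2 colon libraries with ileal transcripts, 8644 genes were higher and 8101 lower, and without female heart 3 as well the counts were 8943 and 8278. The mean on the log scale is open-ended where a comparison group is at 0 counts. This held for 4131 tested genes (16.0%), of which 1991 had a fitted difference below 0 and were not called, although 1955 of those were lower in colon than in at least 1 of the tissues taken alone.

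Taken tissue by tissue, with the colon libraries shared between the comparisons, colon was higher than brain for 9656 genes (37.5%) and lower for 9974 (38.7%). Against cerebellum, 9335 genes (36.3%) were higher and 9769 (38.0%) lower. Against heart, 8699 genes (33.8%) were higher and 7160 (27.8%) lower.

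Among protein-coding genes, 5948 (35.2%) were higher in colon and 6889 (40.8%) lower, with a median of -0.17. Against each of the 3 tissues 3132 of them (18.6%) were higher and 2844 (16.8%) lower, and all colon libraries lay above all others for 2292 (13.6%) and below for 1241 (7.35%). In the same comparison, 1464 lncRNAs (32.3%) were higher and 1119 (24.7%) lower, with a median of -0.16. Against each tissue 692 lncRNAs (15.3%) were higher and 369 (8.15%) lower, and 423 (9.34%) lay above and 114 (2.52%) below all other libraries. Pseudogenes were more often higher than lower in colon, with 691 (47.7%) higher, 137 (9.46%) lower and a median of 0.96. Against each tissue 307 pseudogenes (21.2%) were higher and 38 (2.62%) lower, and 172 (11.9%) lay above and 11 (0.76%) below all other libraries. Thinning every library to the smallest total left 748 pseudogenes to test, of which 381 were higher and 90 lower in colon. Without the 2 colon libraries with ileal transcripts, 542 of 1322 tested pseudogenes were higher and 125 lower. Pseudogenes took 0.237% to 0.328% of the counts in colon libraries and 0.109% to 0.193% in the others. Reads of a pseudogene and of its parent gene can be hard to part, and the part of parent genes in these counts was not tested.

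**Figure D2:**
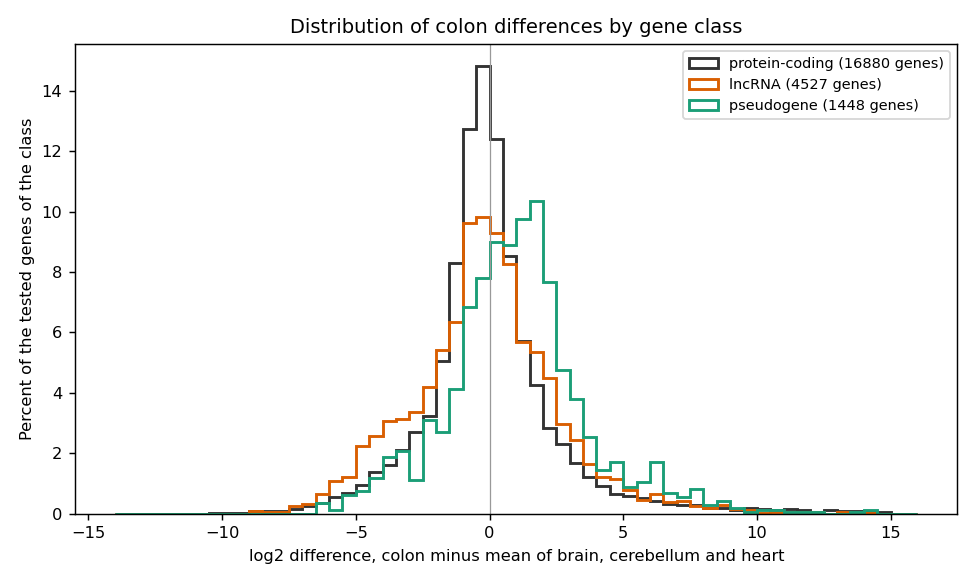
Distribution of the log2 difference, colon minus the mean of brain, cerebellum and heart, in percent of the tested genes of each class, in steps of 0.5. The curves of the 16880 protein-coding genes and 4527 lncRNAs centre near 0, with medians of -0.17 and -0.16, and that of the 1448 pseudogenes is shifted to the right, with a median of 0.96. Genes that passed the filter through the colon libraries alone lie to the right in every class.

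The 12 protein-coding genes with the largest increases, among those with a colon mean of at least 10 FPKM and no overlap between groups, had log2 differences of 14.36 to 15.03. Gsdmc2, a member of the pore-forming gasdermin family, was at 162 to 448 FPKM in the 6 colon libraries (median 283) and at 0 to 0.0839 FPKM in the 17 others (log2 difference 15.03, SE 0.28, edgeR adjusted p = 2.41e-18). Zg16, a lectin of the mucus layer, was at 313 to 586 FPKM (median 475) against 0 to 0.062 FPKM (14.87, SE 0.25). Guca2a, which encodes guanylin, a peptide that controls salt and water secretion, reached 703 to 1700 FPKM (median 1230) against 0 to 0.172 FPKM (14.42, SE 0.30, and 15.05 without male heart 1). No library of another tissue came near a colon library for these 3 genes. Clca4a, of the family of calcium-activated chloride channel regulators, was at 501 to 1660 FPKM (median 1050) against 0 to 0.18 FPKM. Gpa33, an epithelial surface antigen of the gut, had a median of 149 FPKM in colon, a highest value of 200 FPKM and at most 0.0543 FPKM elsewhere. The orphan adhesion receptor Adgrg7 was at 79.2 to 201 FPKM (median 118) against 0 to 0.0626 FPKM.

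Sult1d1, a cytosolic sulfotransferase, was at 244 to 411 FPKM in colon (median 323) and at 0 to 0.0509 FPKM elsewhere (log2 difference 14.60, SE 0.23, edgeR adjusted p = 4.85e-21). Its neighbour Sult1b1 was at 154 to 394 FPKM (median 217) with 3 counts in the 17 other libraries together, a pooled ratio of 38600 (95% exact interval 13200 to 187000, counting error only). The carboxylesterase Ces2a was at 90.2 to 371 FPKM (median 165) against 0 to 0.0466 FPKM. Clrn3, a tetraspan membrane protein, was at 66.9 to 115 FPKM (median 91.3) with 1 count elsewhere. The cornified-envelope gene Sprr2a2 was at 68 to 139 FPKM (median 128) against 0 to 0.0234 FPKM, a value that is uncertain because near-identical copies of it exist. For genes with so few counts outside colon the fitted log2 difference depends on the constant added to the counts.

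Reg3g, an antimicrobial lectin of the gut surface, met the rule for this group but rested on the libraries that stand apart. It was at 240 FPKM in female colon 1, 1.61 in female colon 2, 0.674 in female colon 3, 0.526 in male colon 1, 0.101 in male colon 2 and 278 in male colon 3, and at 0 to 0.0184 FPKM in the other tissues. Its log2 difference of 14.49 (SE 1.92) became 7.34 without female colon 1 and male colon 3 (edgeR adjusted p = 6.81e-07).

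**Figure D3:**
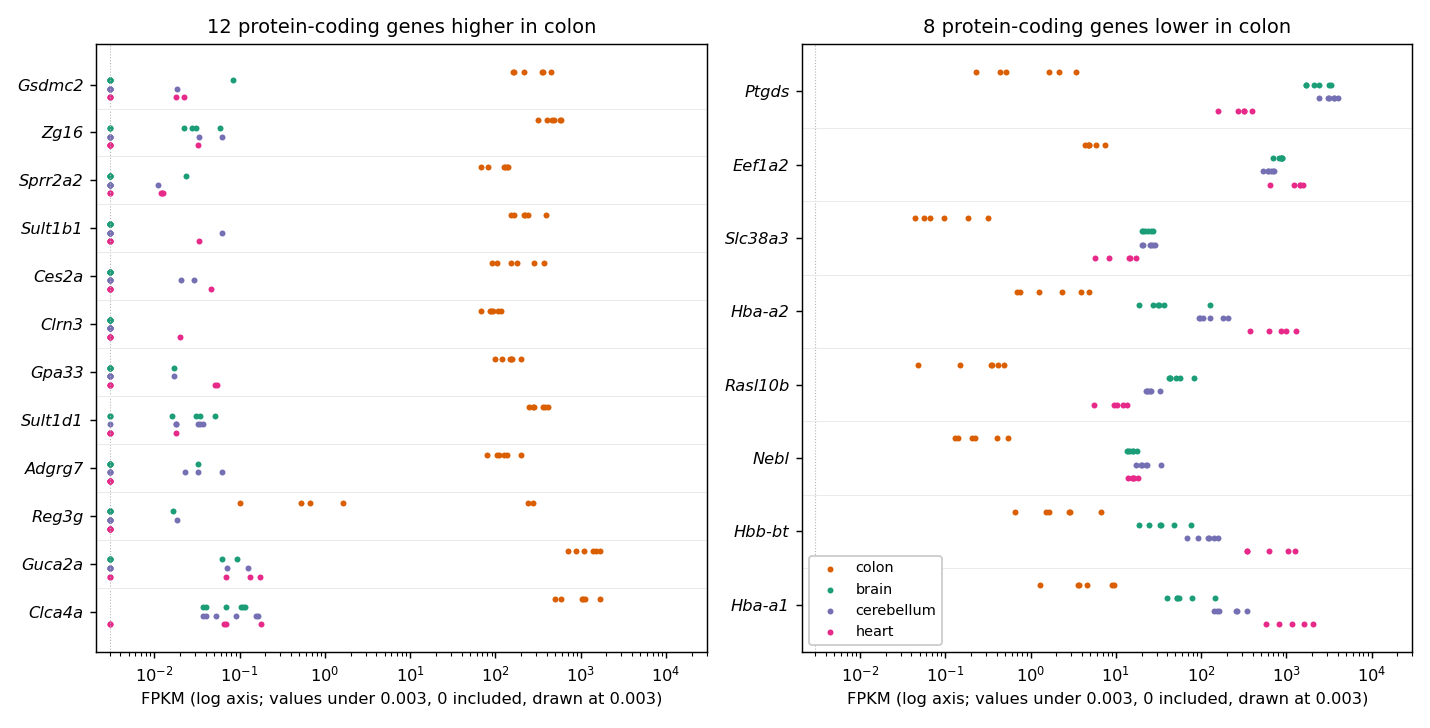
FPKM on a log axis in each of the 23 libraries for the 12 most increased protein-coding genes with a colon mean of at least 10 FPKM (left) and the 8 most decreased with at least 10 FPKM in each other tissue (right), all without overlap between groups, 1 point a library and 1 colour a tissue, with values under 0.003 drawn at 0.003. All colon points lie right of all others on the left and left of all others on the right, and Reg3g splits into 2 high and 4 low colon libraries.

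Among protein-coding nuclear genes higher than each tissue, the 5 most abundant in colon were Car1, Actb, Cyp2c55, Lypd8 and Fabp2, and Actb alone among them was also abundant elsewhere. Car1, a carbonic anhydrase of the surface epithelium, was at 7580 to 14800 FPKM in colon (median 10300) and at 0.206 to 2.01 FPKM in the 17 others (log2 difference 13.84, SE 0.32, edgeR adjusted p = 1.39e-19). Cyp2c55, a cytochrome P450, was at 2810 to 3940 FPKM (median 3520) against 0.0374 to 0.572 FPKM. Lypd8, a secreted protein that keeps flagellated bacteria off the epithelium, was at 1800 to 4350 FPKM (median 2880) against 0 to 0.568 FPKM. Fabp2, a fatty acid carrier of enterocytes, was at 1560 to 3620 FPKM (median 2460) against 0 to 0.693 FPKM. The cytoskeletal actin Actb was at 2790 to 5280 FPKM (median 3660) in colon, 944 to 1430 FPKM in the neural tissues and 305 to 977 FPKM in heart, a log2 difference of 1.97 (SE 0.13).

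Of 24 lists of 331 entries (330 genes), 316 entries (315 genes) could be tested. Counts of members are read against the shares over all tested genes given above. All 16 genes of epithelial structure were higher in colon, also against each of the 3 tissues, with a median log2 difference of 9.36. Lgals4, an epithelial galectin, was at 1230 to 2100 FPKM in colon (median 1930) and at 0.102 to 2.08 FPKM elsewhere (11.25, SE 0.21, edgeR adjusted p = 7.11e-21). The keratin Krt20 was at 262 to 764 FPKM against 0 to 0.413 FPKM, and Krt8 at 852 to 1700 FPKM against 0.186 to 9.63 FPKM. The desmosomal genes Dsg2 and Dsc2, which heart muscle also uses, had smaller differences of 5.88 and 6.70, with 5.39 to 7.49 and 7.43 to 10.6 FPKM in heart.

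All 19 transcription factors of gut epithelium were higher in colon than the mean of 3, and 18 were higher than each tissue, with a median of 8.75. Hnf4a, a nuclear receptor that drives enterocyte genes, was at 117 to 261 FPKM in colon (median 197) and at 0 to 0.085 FPKM in the others (13.66, SE 0.28, edgeR adjusted p = 3.47e-20). Cdx2, the caudal-type factor that sets intestinal identity, was at 52 to 93.6 FPKM with 3 counts in the 17 other libraries, a pooled ratio of 22500 (95% exact interval 7680 to 109000). Elf3 was at 118 to 223 FPKM against 0 to 0.955 FPKM. Klf4 and Klf5, zinc-finger factors of differentiating and dividing epithelium, were measured in all tissues and had differences of 5.31 and 4.66. Gata6, which the heart also uses, was the member not higher than each: it was at 2.49 to 4.38 FPKM in colon, 8.81 to 10.3 FPKM in heart and at most 0.281 FPKM in brain and cerebellum. Hnf4g ranged from 7.54 to 65.7 FPKM in colon, with its highest values in female colon 1 and male colon 3.

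Of 24 genes of absorptive transport, 23 were higher in colon and 1 was lower, with a median of 5.50, and 20 were higher than each of the 3 tissues. Slc26a3, the chloride-bicarbonate exchanger of the colon surface, was at 395 to 689 FPKM in colon (median 473) and at 0.0438 to 6.66 FPKM elsewhere (10.13, SE 0.20, edgeR adjusted p = 1.34e-20). The water channel Aqp8 was at 361 to 833 FPKM (median 517) against 0 to 1.45 FPKM. The member that was lower, Aqp4, is the water channel of astrocytes in the brain: it was at 0.664 to 4.3 FPKM in colon, 35.5 to 113 FPKM in brain and cerebellum and 0.536 to 1.04 FPKM in heart (-3.25, SE 0.29). Its difference was -3.90 without the 2 colon libraries with ileal transcripts. The beta and gamma subunits of the epithelial sodium channel were low, with Scnn1b at 0.206 to 0.844 FPKM and Scnn1g at 0.0356 to 0.226 FPKM, while the alpha subunit Scnn1a was at 4.45 to 7.38 FPKM. The potassium channel and proton pump members Kcnn4 and Atp12a also stayed low, at 0.316 to 1.39 and 0 to 0.219 FPKM.

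The secretory cell lists were less even. Of 16 tested goblet cell genes, 14 were higher in colon, 1 was lower and 1 was not called, with a median of 10.98. Tff3, a trefoil peptide of mucus, was at 357 to 588 FPKM in colon (median 418) and at 0 to 0.474 FPKM elsewhere (12.12, SE 0.28, edgeR adjusted p = 1.83e-18, and 12.76 without female heart 3). Clca1 was at 165 to 681 FPKM and the membrane mucin Muc13 at 287 to 595 FPKM. Muc2, the main mucin of the colon, was at 524 FPKM in female colon 1 and 214 FPKM in male colon 3, and at 96.1 to 120 FPKM in the other 4 colon libraries. The lower member was Bcas1, which myelinating glia also make, at 4.55 to 9.15 FPKM in colon and 60.3 to 204 FPKM in brain and cerebellum.

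Among 11 tested enteroendocrine genes, 7 were higher, 2 lower and 2 not called, with a median of 1.73. The calls of both lower members were lost without male heart 1, and that of 1 of them without female heart 1. Taken by tissue, 5 members were higher and 6 lower than brain, 5 higher and 5 lower than cerebellum, and 10 higher and 0 lower than heart. The preproglucagon gene Gcg was at 6.11 to 15.7 FPKM in colon and at 0 to 0.678 FPKM in the others (8.92, SE 0.50, edgeR adjusted p = 7.46e-12). Chga and Chgb, granule proteins shared with neurons, counted as higher than the mean of 3, at 1.73 and 0.63, although only heart was below colon. They were at 5.8 to 9.4 and 8.78 to 11.3 FPKM in colon and at most 0.2 FPKM in heart. In brain and cerebellum they were at 20.0 to 37 and 50.7 to 90.9 FPKM. Cck was at 0.866 to 2.19 FPKM in colon and 36 to 293 FPKM in brain and cerebellum (-3.39, SE 0.40, and -2.68 without male heart 1). Of 6 tested tuft cell genes, 4 were higher and 1 lower. The tuft cell channel Trpm5 had a difference of 0.52 (edgeR adjusted p = 0.0356) that lost its call with no filter on low counts (edgeR adjusted p = 0.124) and without some single libraries, and Dclk1, which neurons also make, was lower in colon at -2.44.

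Genes of dividing cells were higher in colon without exception, at 22 of 22 members with a median of 2.42, and 20 were higher than each tissue. Mki67, a nuclear protein of cycling cells, was at 8.12 to 18 FPKM in colon (median 13.8) and at 0.319 to 4.23 FPKM in the others (4.05, SE 0.29, edgeR adjusted p = 3.34e-11), with the highest of the others in heart. Top2a was at 12.7 to 23.9 FPKM against 0.439 to 4.77 FPKM, and Ccna2 at 8.64 to 17.1 FPKM against 1.1 to 4.63 FPKM. Pcna, the replication clamp, differed by 0.33, at 34.9 to 45.4 FPKM against 22.5 to 34.4 FPKM. Of 12 crypt stem cell genes, 7 were higher, 4 lower and 1 not called, with a median of 0.79. Prom1 was at 135 to 184 FPKM against 0.00977 to 4 FPKM (7.92, SE 0.19), and Cd44 at 12.8 to 24.2 FPKM against 1.26 to 14.6 FPKM. Lgr5, the receptor that marks crypt stem cells, was at 0.455 to 0.919 FPKM in colon, 0.222 to 0.952 FPKM in brain and cerebellum and 0.00939 to 0.328 FPKM in heart. Sox9, Tnfrsf19, Axin2 and Znrf3 were lower than the mean of 3, with differences of -2.25, -1.32, -0.60 and -0.50. Sox9 was at 1.55 to 3.24 FPKM in colon, 19.5 to 43.9 FPKM in brain and cerebellum and 0.74 to 2.83 FPKM in heart. Tnfrsf19 was at 1.44 to 2.3 FPKM in colon, 6.3 to 18.1 FPKM in brain and cerebellum and 0.46 to 1.37 FPKM in heart.

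Of 15 barrier defence genes, 14 were higher in colon and 1 was not called, with a median of 8.70, and 12 were higher without the 2 colon libraries with ileal transcripts. Dmbt1, a mucosal scavenger receptor, was at 747 to 1190 FPKM (median 979) against 0 to 0.264 FPKM (14.08, SE 0.36, edgeR adjusted p = 9.13e-19, and 14.96 without male heart 1). Pigr, the receptor that carries IgA across the epithelium, was at 246 to 424 FPKM against 0 to 0.184 FPKM. Reg3b had a difference of 14.43 with all colon libraries and of 5.43 without female colon 1 and male colon 3. Itln1 and Pla2g2a had no count in the 17 other libraries and no count in at least 1 colon library, so no fold is given. Lcn2, an iron-withholding protein, was at 2.83 to 5.59 FPKM in colon and at 0.555 to 16.4 FPKM elsewhere, and was not called.

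Of 19 genes of xenobiotic and lipid metabolism, 18 were higher and 1 lower, with a median of 7.15. Cyp2c65 was at 198 to 377 FPKM (median 274) against 0 to 0.174 FPKM (13.32, SE 0.30, edgeR adjusted p = 4.19e-19, and 14.04 without female heart 2). Abcb1a, the efflux pump P-glycoprotein, was at 239 to 369 FPKM against 1.38 to 8.91 FPKM. Gsta4, a glutathione transferase, went the other way and was lower than each tissue, at 18.8 to 24.3 FPKM in colon and 55 to 111 FPKM elsewhere (-1.98, SE 0.14).

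**Figure D4:**
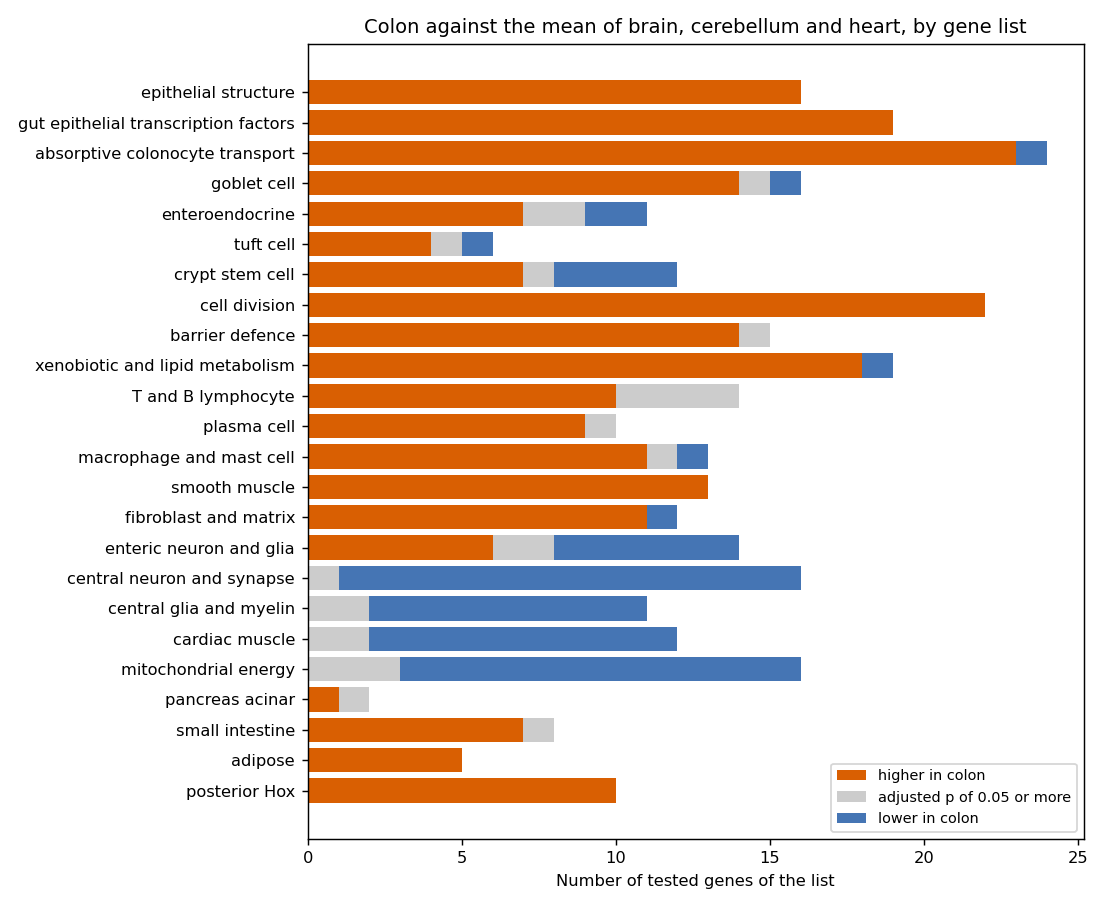
Number of tested genes of each of the 24 lists that were higher in colon, lower in colon or not called (adjusted p of 0.05 or more) against the mean of brain, cerebellum and heart. Epithelial structure, gut transcription factors, cell division, smooth muscle, adipose and posterior Hox genes are higher throughout, and the neuron, glia, cardiac and mitochondrial lists hold no higher gene.

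Antibody and T-cell receptor genes took 0.13% to 0.322% of the counts in colon, at most 0.00417% in brain and cerebellum, and up to 0.106% in heart. Of 494 such genes annotated, 193 passed the filter on low counts. Of these, 182 (94.3%) were higher in colon, with a median log2 difference of 6.76. A gene can pass that filter through the colon libraries alone and then comes out higher, so this share is partly set in advance. The values of these genes are also uncertain, since segments of these families resemble one another. Of 10 plasma cell genes, 9 were higher and 8 were higher than each tissue. Igha, the heavy chain of IgA, was at 155 to 397 FPKM in colon (median 294) and at 0 to 1.81 FPKM elsewhere (10.75, SE 0.35, edgeR adjusted p = 4.53e-17, and 11.63 without male heart 1). Jchain, which links IgA into dimers, was at 67.3 to 150 FPKM against 0.0293 to 38.6 FPKM, where the highest value is that of female heart 3. Ighm, the heavy chain of IgM, was not called, at 11.4 to 96.4 FPKM in colon and 4.75 to 213 FPKM elsewhere.

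Of 14 T and B lymphocyte genes, 10 were higher and 4 were not called, and no member had all colon libraries above all others. The summed level of this list was 126 FPKM in male colon 1 and at most 23.5 FPKM in the other colon libraries, and 79.6 FPKM in female heart 3 and at most 10.4 FPKM in the other hearts. Ptprc, the common leukocyte antigen CD45, was at 8.81 to 36.9 FPKM in colon and 1.26 to 22.6 FPKM elsewhere (2.50, SE 0.23, edgeR adjusted p = 2.12e-09). Cd79a had a difference of 0.91 that was not called, and it was at -0.54 without male colon 1. It was called higher in colon at 1.40 without female colon 1 and male colon 3 (edgeR adjusted p = 0.0237), and at 1.67 without female heart 3 as well (edgeR adjusted p = 0.00183). Without male colon 1, 7 genes of the list were higher and 1 was lower. Of 13 macrophage and mast cell genes, 11 were higher, 1 was lower and 1 was not called, and 2 were lower without the 2 colon libraries with ileal transcripts. The class II genes Cd74 and H2-Ab1 were at 83.9 to 242 and 59.7 to 167 FPKM in colon and reached 132 and 72.4 FPKM in heart. Cx3cr1, which microglia carry, was lower at -0.45. The mucosal mast cell proteases Mcpt1 and Mcpt2 had 0 counts in the 17 other libraries and 0.52 to 2.94 and 0.276 to 1.5 FPKM in colon.

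All 13 smooth muscle genes were higher than the mean of 3, with a median of 6.04, and 11 were higher than each tissue. Actg2, the enteric smooth muscle actin, was at 1040 to 4370 FPKM (median 1780) against 0.194 to 3.17 FPKM (11.94, SE 0.31, edgeR adjusted p = 8.57e-19). Acta2 was at 1670 to 3680 FPKM against 6.27 to 132 FPKM and Tagln at 1080 to 2660 FPKM against 4.85 to 43.4 FPKM. Des, the intermediate filament of all muscle, was at 617 to 1840 FPKM in colon, 518 to 1410 FPKM in heart and at most 2.81 FPKM in brain and cerebellum. Of 12 fibroblast and matrix genes, 11 were higher and 1 lower, with a median of 1.87. Adamdec1, a protease of the gut stroma, was at 222 to 348 FPKM against 0 to 0.104 FPKM (13.61, SE 0.24). Dcn and Dpt, which heart stroma also makes, were at 210 to 390 and 137 to 208 FPKM in colon and at 324 to 773 and 52.7 to 169 FPKM in heart. Thy1, which neurons carry, was lower at -2.29.

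Of 14 tested genes of enteric neurons and glia, 6 were higher, 6 lower and 2 not called, with a median of 0.27. Vip, a relaxing neuropeptide of the gut wall, was at 5.57 to 8.21 FPKM in colon and 0 to 5.83 FPKM elsewhere (5.82, SE 0.24, edgeR adjusted p = 6.15e-14). Prph, a filament of peripheral neurons, was at 4.05 to 6.34 FPKM against 0.0485 to 4.43 FPKM. Hand2 was at 7.32 to 14.2 FPKM in colon, 12.8 to 23.9 FPKM in heart and at most 0.0332 FPKM in brain and cerebellum. The glial genes S100b and Gfap were detected in colon at 0.771 to 1.54 and 1.15 to 1.83 FPKM and were lower than the mean of 3, with differences of -3.84 and -3.23. In heart they were at 0.176 to 0.717 and 0.0589 to 0.219 FPKM, below colon, and in brain and cerebellum at 35.6 to 271 and 90.5 to 257 FPKM. Taken by tissue, 7 members were higher and 7 lower than brain, 4 higher and 7 lower than cerebellum, and 11 higher and 1 lower than heart.

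All 5 adipose genes were higher than the mean of 3 and none was called higher than each tissue. Adipoq was at 6.75 to 78.5 FPKM in colon, at most 0.335 FPKM in brain and cerebellum, and at 695 FPKM in female heart 3. Of 8 small intestine genes, 7 were higher in colon, 6 without the 2 colon libraries with ileal transcripts and 4 with DESeq2. Mep1a, a brush-border protease, and Alpi, the intestinal alkaline phosphatase, were even across colon libraries at 160 to 275 and 17.7 to 42.5 FPKM. Fabp6 fell from a difference of 10.70 to 3.33 without the 2 libraries, and without male colon 3 alone it was at 6.22 and no longer called (edgeR adjusted p = 0.0813). Of the pancreas genes, 2 could be tested: Cela1 was higher in colon, at 10.5 to 21.2 FPKM against 0 to 3.1 FPKM, and Pnlip had no count in colon.

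On the lower side, 8 protein-coding genes were most reduced among those with a mean of at least 10 FPKM in each of the 3 tissues and all colon libraries below all others. Genes that are high in 1 or 2 of the tissues, such as Slc17a7 at -8.27, fell outside that limit. Ptgds, the synthase of prostaglandin D2 that the brain coverings and heart make, was at 0.227 to 3.38 FPKM in colon (median 1.08), 1680 to 3970 FPKM in brain and cerebellum and 159 to 399 FPKM in heart (-10.06, SE 0.54, edgeR adjusted p = 2.1e-13, and -10.96 without male colon 3). Eef1a2, the translation elongation factor of neurons and muscle, was at 4.34 to 7.44 FPKM (median 4.84) in colon and 527 to 1570 FPKM elsewhere (-7.49, SE 0.29). Slc38a3, a glutamine transporter, was at 0.0439 to 0.316 FPKM against 5.62 to 28.8 FPKM. The small GTPase Rasl10b was at 0.0477 to 0.494 FPKM against 5.49 to 81.4 FPKM, and Nebl, an actin-binding protein of heart muscle, at 0.131 to 0.546 FPKM against 13.6 to 33.5 FPKM. The globin genes Hba-a1, Hba-a2 and Hbb-bt, which red blood cells carry, were at 1.3 to 9.42, 0.685 to 4.78 and 0.655 to 6.71 FPKM in colon. They were at 583 to 2040, 375 to 1280 and 347 to 1250 FPKM in heart and at 39.3 to 346, 18.5 to 204 and 18.8 to 156 FPKM in brain and cerebellum. The globin genes have near-identical copies, so the split between them is uncertain.

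The lists of the other tissues were lower in colon mainly against their own tissue. All 16 genes of central neurons were lower than brain and lower than cerebellum, with medians of -7.53 and -6.04, while 11 of the 16 were higher in colon than in heart. Snap25, of the synaptic release machinery, was at 2.76 to 6.22 FPKM in colon, 391 to 1010 FPKM in brain and cerebellum and 0 to 0.324 FPKM in heart. Against the mean of 3, 15 of the 16 were lower, with a median of -3.55. All 11 tested genes of central glia were lower than brain and than cerebellum (medians -7.28 and -7.95), and Mbp of myelin was at 5.22 to 8.56 FPKM in colon and 255 to 942 FPKM in the neural tissues. All 12 tested cardiac genes were lower than heart, with a median of -11.32. Myh6, the heart myosin, was at 0.0439 to 0.695 FPKM in colon and 1790 to 4950 FPKM in heart. All 16 genes of mitochondrial energy metabolism were lower in colon than in heart (median -2.76), and against brain 4 were higher and 2 lower. Cox4i1 was at 515 to 1100 FPKM in colon, 672 to 953 FPKM in brain and cerebellum and 1820 to 3700 FPKM in heart.

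Genes of the posterior Hox clusters, which lay out the rear of the body axis, were higher in colon at all 10 tested members, each also against every tissue, with a median of 9.21. Hoxa10 was at 6.35 to 14.9 FPKM in colon with 3 counts in the 17 other libraries, a pooled ratio of 5180 (95% exact interval 1770 to 25100). Hoxb9 was at 6.07 to 8.04 FPKM against 0 to 0.0303 FPKM (10.47, SE 0.33, edgeR adjusted p = 1.25e-14), and Hoxd10 at 5.56 to 13.7 FPKM against 0 to 0.171 FPKM. Hoxa11 had no count outside colon and was at least 29.6-fold higher, taking 3 counts per library as the floor. Hoxa13 and Hoxd11 also had no count outside colon and were at 0.152 to 1.87 and 0.0809 to 0.741 FPKM in colon, with 5 and 4 counts in their lowest colon library. Hoxb13 had 0 counts in colon, and Hoxd12 and Hoxd13 had 6 and 5 counts over the 6 colon libraries.

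There were 684 protein-coding genes (4.05% of 16880) that were higher than each tissue and at least 32-fold higher than the mean of 3. Of these, 221 (32.3%) stood in 82 runs of at least 2 neighbours, with no other tested protein-coding gene between them. The share that other sets of this size would give was not computed. The longest run had 7 genes on chromosome 5 (GRCm38.p6, 86889769 to 87568901): the glucuronosyltransferases Ugt2b34, Ugt2b1, Ugt2b35, Ugt2b36 and Ugt2b5, and the sulfotransferases Sult1b1 and Sult1d1. A run of 6 on chromosome 6 (52206288 to 52260880) held Hoxa6, Hoxa7, Hoxa9, Hoxa10, Hoxa11 and Hoxa13. Runs of 5 held Cyp2c55 and further Cyp2c genes on chromosome 19 (39006901 to 39886799), Cyp2d genes on chromosome 15, and Clca3a2, Clca3b, Clca4b, Clca4a and Clca1 on chromosome 3 (144796559 to 145032772). A pair of runs of 5 on chromosome 8 were defensins, which were high in female colon 1 and male colon 3. Without those 2 libraries 623 genes met the criteria, 615 of them among the 684, and 186 stood in 72 runs. Most runs were of gene families, whose members arose side by side and can share reads.

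Of the 8 lncRNAs with the largest increases, 3 overlapped a protein-coding gene on the other strand. Gm3054, on chromosome 5 (137154029 to 137166070, minus strand, 265 exon bases), was at 906 to 2290 FPKM in colon (median 1540) and 0 to 0.881 FPKM elsewhere (14.13, SE 0.33, edgeR adjusted p = 1.23e-17, and 14.74 without male brain 1). Gm3054 lies 822 bases from CAAA01077340.1 on the same strand, which had a difference of 9.90. Both lie within a run of increased genes that also holds Muc3 and Muc3a. Gm16233 was at 118 to 491 FPKM (median 280) against 0 to 0.077 FPKM and overlaps Clca4a on the other strand by 334 exon bases. Gm11534 was at 283 to 419 FPKM and lies opposite B4galnt2, a glycosyltransferase of the gut, and Gm15947 was at 16.8 to 27.5 FPKM and lies opposite the serine protease gene Prss32. The kit kept the strand, but how strand was set when reads were counted is not stated in the sources used here, so reads of these pairs cannot be told apart. Without genes that share exon bases with another gene, 852 lncRNAs were higher in colon and 451 lower.

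Other lncRNAs of this group had no overlap with a coding gene. 9130016M20Rik, on chromosome 19 (31950084 to 31952361, plus strand), lies 1089 bases from A1cf, which encodes a partner of the apolipoprotein B mRNA editing enzyme. It was at 8.27 to 17.3 FPKM (median 12.5) in colon with no count in the 17 other libraries, which makes it at least 120-fold higher against a floor of 3 counts per library. A1cf, on the same strand, had a mean of 29.8 FPKM in colon and a difference of 12.50. Whether reads of 9130016M20Rik come from A1cf transcripts was not tested. Gm53, on chromosome 11 (96251105 to 96264868), lies 6589 bases from Hoxb9, which had a difference of 10.47. Gm53 was at 5.1 to 9.88 FPKM in colon with 2 counts elsewhere. 9130204K15Rik and 9130209A04Rik were at 8.33 to 27.2 and 10.6 to 29.3 FPKM with 1 and 2 counts elsewhere. Their nearest coding genes, Utp6 and Sema6a, had differences of -0.49 and 1.57.

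Of the 4 lncRNAs most reduced in colon, 3 lay opposite a coding gene. Mhrt, opposite the cardiac myosin gene Myh7, had 3 counts in the 6 colon libraries and was at 35.2 to 165 FPKM in heart and 0.302 to 9.4 FPKM in brain and cerebellum. Gm42064, opposite Gal3st3, also had 3 counts in colon and was at 2.54 to 13.7 FPKM elsewhere. Gm15856, opposite the tubulin gene Tuba8, was at 0 to 0.252 FPKM against 1.81 to 40.7 FPKM (-6.51, SE 0.42, edgeR adjusted p = 5.48e-12), and its difference was -8.58 without male colon 1. A630019I02Rik, 2057 bases from the muscle gene Cmya5, was at 0.0531 to 0.477 FPKM in colon and 62.5 to 105 FPKM in heart (-5.39, SE 0.34).

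The 2 most increased pseudogenes are named for gut gene families. Btnl5-ps, on chromosome 17 (34488070 to 34497429), is of the butyrophilin-like family that shapes gut T cells. It was at 50.8 to 102 FPKM in colon (median 87.1) with 3 counts in the other 17 libraries, a pooled ratio of 24800 (95% exact interval 8470 to 120000). Its nearest coding gene Btnl6, 9003 bases away, had a mean of 71.4 FPKM in colon. Mgam2-ps, on chromosome 6 (40778690 to 40816182), is by its name of the maltase-glucoamylase family and was at 57.1 to 86.3 FPKM (median 77.8) with 2 counts elsewhere, and Mgam beside it had a mean of 45.9 FPKM.

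Promoters of the strongly increased genes differed in base composition from those of other genes. The 250 bases before the RefSeq start were available for 516 of the 684 genes and for 12956 of the tested protein-coding genes. The median number of CpG per 100 bases was 1.2 in the former and 5.6 in the latter, and 6.4 in genes lower in colon than each tissue. The letters TATAAA, those of the TATA box, stood on the coding strand within the last 50 bases in 8.53% of the 516 and in 2.22% of the 12956. Over the 250 bases and both strands, CATAAA, letters bound by caudal-type factors such as Cdx2, stood in 13.0% and 6.55%, and CAAAGTCC, of the HNF4 type, in 4.46% and 1.36%. In all 27025 promoters of the RefSeq table the shares were 2.88%, 11.1% and 1.22%, with a median CpG of 2.4 per 100 bases. The TATA-box and caudal-type letters differ in their first base, so no match on a strand counts for both. These shares describe letters, not bound sites. Of the 12 such promoters available for the 17 genes named as most increased or abundant, 4 held TATA-box or caudal-type letters and 8 held none of the motifs. Promoters of the named genes Cyp2c55, Reg3g and Clrn3 are shown because they hold such letters close to the start, and that of Lypd8 because it holds none of the exact strings searched. They were picked after their letters were seen and read from RefSeq on GRCm38.p6 with the TATA-box and caudal-type letters of either strand in capitals:
Cyp2c55, chr19:39006769-39007018, plus strand: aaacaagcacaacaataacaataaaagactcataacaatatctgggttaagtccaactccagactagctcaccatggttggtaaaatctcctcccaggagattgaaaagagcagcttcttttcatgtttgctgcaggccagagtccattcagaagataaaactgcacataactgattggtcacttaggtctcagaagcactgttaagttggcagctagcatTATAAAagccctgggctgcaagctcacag
Reg3g, chr6:78468875-78469124, minus strand: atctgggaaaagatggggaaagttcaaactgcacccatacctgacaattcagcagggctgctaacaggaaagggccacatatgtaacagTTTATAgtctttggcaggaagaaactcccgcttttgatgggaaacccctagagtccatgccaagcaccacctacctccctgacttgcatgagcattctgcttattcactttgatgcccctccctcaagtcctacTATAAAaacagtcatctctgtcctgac
Clrn3, chr7:135528655-135528904, minus strand: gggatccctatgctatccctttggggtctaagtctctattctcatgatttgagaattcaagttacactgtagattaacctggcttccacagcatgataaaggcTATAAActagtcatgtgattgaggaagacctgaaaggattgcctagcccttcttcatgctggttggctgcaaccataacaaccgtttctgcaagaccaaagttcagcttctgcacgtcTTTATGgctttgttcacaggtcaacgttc
Lypd8, chr11:58378782-58379031, plus strand: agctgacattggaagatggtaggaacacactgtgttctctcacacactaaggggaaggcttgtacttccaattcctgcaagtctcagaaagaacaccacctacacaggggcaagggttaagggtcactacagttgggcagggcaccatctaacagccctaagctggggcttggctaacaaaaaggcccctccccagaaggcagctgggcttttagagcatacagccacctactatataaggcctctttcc

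In Cyp2c55 and Reg3g TATAAA began 29 and 27 bases before the RefSeq start, and in Clrn3 a reversed CATAAA began 29 bases before it. In the annotation used for counting, Cyp2c55 begins at 39006901, inside the printed window, so its TATAAA lies within the counted gene. The Lypd8 window held none of the exact motifs searched and no CpG. It does hold tatataag near its end, close to TATA-box letters, which the search for TATAAA does not count. Cyp2c55 and Lypd8 are among the 5 abundant genes described above.

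**Figure D5:**
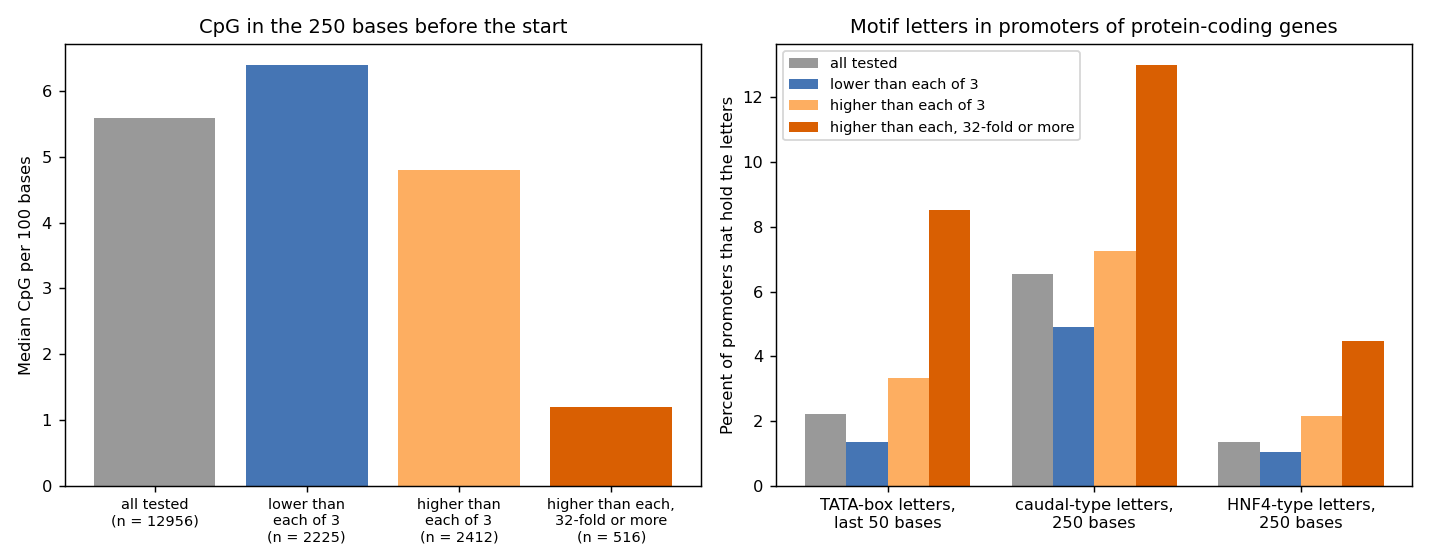
Left, median CpG per 100 bases in the 250 bases before the RefSeq start for tested protein-coding genes, genes lower or higher in colon than each of the 3 tissues, and the latter at 32-fold or more, with the number of promoters under each bar. Right, percent of promoters with TATA-box letters in the last 50 bases, caudal-type letters and HNF4-type letters in the same 4 sets. CpG is lowest, at 1.2, and each motif most frequent, at 8.53%, 13.0% and 4.46%, in the 32-fold set.

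The difference between colon and the 3 tissues depended on sex for 9 of 25741 genes by edgeR, 4 of them with a higher value in males (0.0155%) and 5 in females (0.0194%), with 1867 genes (7.25%) at an unadjusted p under 0.05. Between male and female colon, 21 genes were higher in males (0.0816%) and 58 in females (0.225%), with 2226 (8.65%) at an unadjusted p under 0.05. The sum of 79 became 41 without male colon 1, 141 without female heart 3, 199 without female colon 1, male colon 3 and female heart 3, and 250 with DESeq2. Of the genes named here, 3 interferon-induced ones were higher in females. Ifit1bl1 was at 378, 1600 and 295 FPKM in the female colon libraries and 43.7, 41.4 and 82.9 FPKM in the male ones (male minus female -3.95, SE 0.51). Ifit2 was at 33.6, 128 and 35.5 against 7.44, 7.99 and 8.57 FPKM (-3.23, SE 0.37), and Ifi44 at 10.2, 20.5 and 5.74 against 0.832, 1.17 and 1.34 FPKM (-3.63, SE 0.43). The female and male values did not overlap, and female colon 2 was the highest for all 3 genes. Without female colon 2 the differences were -2.70 for Ifit1bl1, -2.23 for Ifit2 and -2.96 for Ifi44, and without the 2 colon libraries with ileal transcripts that of Ifit1bl1 was -4.72.

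Higher in males was Trpv6, the calcium channel of intestinal uptake, at 0.588, 4.07 and 2.67 FPKM in female and 23.1, 39.9 and 47.4 FPKM in male colon libraries (3.73, SE 0.52). Its difference was 4.36 without female colon 2 and 3.02 without the 2 colon libraries with ileal transcripts. Slc37a2, a sugar-phosphate exchanger, was at 52.1, 64.8 and 55.4 against 145, 205 and 134 FPKM (1.33, SE 0.20). Islr2 was at 0.312, 0.337 and 0.373 against 1.33, 1.42 and 1.06 FPKM (1.73, SE 0.28). Without male colon 2, 0 genes passed the interaction test by edgeR, 1655 had an unadjusted p under 0.05 and 63 passed by DESeq2. Without female colon 1 or female colon 3 the count was 30 and 28. It was 4 without male colon 1, and 5 without any 1 of female brain 1, 2 and 3, female cerebellum 1 and 2, female heart 1, male brain 2 and 3, male cerebellum 1 and male heart 1. Each sex held 1 of the 2 colon libraries with ileal transcripts, and without both the count was 19, with Slc37a2 no longer called (edgeR adjusted p = 0.0756). With DESeq2, 78 genes passed.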

How the data were processed

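Strand-preserving, rRNA-depleted RNA-seq libraries of adult mouse tissues were deposited as a table of raw counts per gene and library. Per the submitters' processing notes, FastQC 0.11.8, MultiQC 0.9, HISAT2 2.0.5, featureCounts 1.6.3 and the mm10 genome were named. The authors counted uniquely mapped reads against a merged long-read and ENSEMBL annotation, and how strand was set in counting is not stated in the sources used here.

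The deposited counts of 23 libraries in 8 groups of tissue and sex were filtered with filterByExpr, scaled with TMM and fitted in edgeR 4.0.16 (R 4.3.3) with quasi-likelihood F-tests, and p-values were adjusted by the Benjamini-Hochberg method over all tested genes, with 0.05 as the threshold. DESeq2 1.42.0 was an alternative. FPKM used library totals and merged exon lengths. Tables were made in Python 3.11.15 with pandas 2.3.3 and scipy 1.17.1. The scripts were tested on simulated data. Intervals of ratios are exact binomial ones and cover counting error only.

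The compared tissues and the gene lists were chosen with earlier results of these data known. Named genes were the 12 most increased and 8 most decreased protein-coding genes, 8 and 4 lncRNAs and 2 pseudogenes, ranked by log2 difference among genes called in both tests and not overlapping between groups, with a mean of at least 10 FPKM (lncRNAs and pseudogenes 1 FPKM). They also included up to 4 members of each list by level and up to 3 that went against it, the 8 genes of widest spread in colon, 5 abundant genes and up to 3 genes in each direction for sex. Other list members in the text, such as Cdx2, Lgr5, Muc2, Pcna and Gata6, were named after their values were seen. Alternatives covered the test, scaling, filter, depth, blocks, weights, threshold, overlapping genes and each library left out. Some list members are not reported here by name.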

Additional observations from a re-analysis of the deposited data

Results flagged for a closer look

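Of 100 groups of libraries tested, 17 had 1 library far from the others. The groups share libraries and include genes picked for their spread or sex difference, so this number cannot be set against chance. In colon, Sult1b1 was at 394 FPKM in female colon 2 with the next library at 240 FPKM, and Hbb-bt at 6.71 FPKM in male colon 3 with the next at 2.88 FPKM. Female colon 2 was also far above the next library for Ifit1bl1 (1600 against 378 FPKM) and Ifit2 (128 against 35.5 FPKM). Male colon 1 stood apart in the summed FPKM of T and B lymphocyte genes, at 126 against 23.5, and of fibroblast genes, at 1980 against 1570.

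Female heart 3 stood apart from the other hearts in the summed FPKM of 11 lists. Its adipose genes summed to 3340 FPKM against 495 in the next heart, plasma cell genes to 812 against 39.7 and lymphocyte genes to 79.6 against 10.4. Fibroblast genes summed to 1610 FPKM, macrophage and mast cell genes to 341, xenobiotic and lipid metabolism genes to 329 and epithelial structure genes to 116. Cell division genes summed to 81.6 FPKM, central glia genes to 74.4, barrier defence genes to 25.0 and tuft cell genes to 4.15.

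The log2 difference, colon minus the other tissues, was higher in males than in females for Trpv6, Islr2 and Slc37a2, by 4.29, 2.20 and 1.36 on the log2 scale (edgeR adjusted p = 0.0194, 0.00856 and 0.0388). The value of Trpv6 was 4.93 without female colon 2, 3.59 without the 2 colon libraries with ileal transcripts and 3.17 without female heart 3 as well. Slc37a2 lost its call without the 2 colon libraries with ileal transcripts (edgeR adjusted p = 0.0756). It was higher in females for Ifit1bl1, Ifi44 and Ifit2, at -4.29, -3.28 and -3.06 as males minus females (edgeR adjusted p = 0.00375, 0.00883 and 0.00375), and without female colon 2 the values were -3.04, -2.60 and -2.06. Ifit1bl1 was at -5.07 without the 2 colon libraries with ileal transcripts.

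Some genes named for colon were also found in gonads, which entered no comparison. Adgrg7 had a mean of 6.48 FPKM in ovary and 3.99 FPKM in testis, against at most 0.0626 FPKM in the 17 libraries. Zg16 had 1.47 FPKM in ovary, Gm53 2.41 FPKM in ovary and 0.16 FPKM in testis, and Actb 2390 FPKM in ovary. In testis, Gsdmc2 had 0.658 FPKM, Guca2a 0.56 FPKM, Gpa33 0.173 FPKM and 9130204K15Rik 0.161 FPKM.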

How the results depend on the processing

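The counts of genes higher and lower in colon stayed within 1.5 times their values in 34 of 35 alternatives tried, and those against each tissue in 33 of 33. The exception was a test against a 2-fold difference, which gave 5804 higher and 4009 lower genes, 3344 and 3197 of them protein-coding and 947 and 593 lncRNAs. Without genes that share exon bases, 852 lncRNAs were higher and 451 lower, and 406 and 143 against each tissue. With 1 library left out, 8808 to 9688 genes were higher and 8215 to 8751 lower. Fitting all 29 libraries moved the median of all genes by -0.14. Among the 155 gene differences recomputed under the alternatives, no called one changed sign, while that of Cd79a, which was not called, went from 0.91 to -0.54 without male colon 1. A call was lost in 96 recomputed values, over 26 of the differences, and gained in 11, over 4 of them.

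The sex results depended on the processing. The 9 genes whose colon difference depended on sex became 78 with DESeq2, 60 with no filter, 18 with all 29 libraries, 19 without the 2 colon libraries with ileal transcripts and 44 without female heart 3 as well, and 0 to 30 with 1 library left out. The 79 genes that differed between male and female colon became 250 with DESeq2, 160 with no filter, 199 without those 3 libraries and 41 to 141 with 1 library left out, the extremes being without male colon 1 and without female heart 3. Of 33 same-numbered pairs of libraries, 1 correlated above 0.1 in their deviations (range -0.186 to 0.106). The library code before its last digit was shared by 31 pairs, of which 2 correlated above 0.1 (range -0.105 to 0.192). Of 68 pairs that did not share it, 2 did so (range -0.186 to 0.116). The 2 sharing pairs were female cerebellum 1 with female colon 3 (0.192) and with female heart 2 (0.144). Whether libraries that share this part of the code came from the same animal was not tested. With the replicate block the counts were 3 and 26, and with the library code as a block 5 and 41. The cause of these shifts was not tested. The libraries left out for ileal, adipose and plasma cell transcripts were chosen after seeing the data. The shallow colon libraries limit what is detected at low levels.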
